A study of Homo sapiens with 8 samples.

Results

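A set of 10 genes that mark or control the epithelial and the mesenchymal state of a cell were described in RNA-seq libraries of the lung adenocarcinoma lines ABC1 and HCC4006. They are *CDH1*, *EPCAM* and *ESRP1* on the epithelial side, *CDH2*, *VIM* and *FN1* on the mesenchymal side, and the transcription factors *SNAI1*, *SNAI2*, *ZEB1* and *ZEB2*. All genes of this list of names were kept, but the list was chosen with earlier results of these data known. Each symbol matched 1 of the 57815 gene identifiers in the files, so 10 of 57815 identifiers are members of the group. Both lines are established non-small cell lung cancer (NSCLC) lines with no mutation of *KEAP1* or *NRF2*, in which KEAP1, the sensor that marks the transcription factor NRF2 for degradation, is intact. Cells were treated for 16 h with 100 μM diethylmaleate (DEM), an electrophile that inhibits KEAP1, or with the solvent dimethyl sulfoxide (DMSO), called vehicle here. The 4 groups, ABC1 with vehicle, ABC1 with DEM, HCC4006 with vehicle and HCC4006 with DEM, held 2 libraries each, numbered replicate 0 and replicate 1, which the study describes as biological duplicates. DEM was given at a single dose and time, and a difference between the lines is one between these cultures only.

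Epithelial cells are held together by E-cadherin at adherens junctions, and in an epithelial-mesenchymal transition this cadherin is lost while N-cadherin, vimentin and fibronectin are gained. The transition is driven by zinc-finger and homeobox repressors of the SNAIL and ZEB families, which bind E-boxes in the promoters of epithelial genes, *CDH1* among them. In carcinoma cells the program is often incomplete, and markers of both states can be found in the same culture.

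Expression was given as FPKM, fragment counts normalized to transcript length and to library size, a scale per length on which genes can be compared. The sums of FPKM differed by at most 1.18-fold between libraries, between 12515 and 13573 genes per library reached 1 FPKM, and Pearson's r across genes between the 2 libraries of a group was 0.992 to 0.995. No read counts per library were used, so no counting interval is given. The authors' deposited table of each line holds a base mean per gene, the mean of scaled counts over the libraries of the line, and these summed to 13786938 in ABC1 and 13957320 in HCC4006. A set of 5 NRF2 target genes checked the treatment, and *NQO1*, *GCLM*, *HMOX1*, *SRXN1* and *TXNRD1* were all called higher with DEM in both lines, the log2 fold changes being 1.59, 1.61, 3.19, 2.64 and 1.81 in ABC1 and 0.89, 2.15, 3.09, 2.70 and 2.40 in HCC4006. Of 10 markers of lung adenocarcinoma, 5 reached 1 FPKM in each ABC1 library and 8 in each HCC4006 library. The lung lineage factor *NKX2-1* was at 0.626 and 0.763 FPKM in the ABC1 vehicle libraries against 47.1 and 42.7 FPKM in HCC4006, and *NAPSA*, *SFTPB*, *SFTPC* and *SFTA3* were also under 1 FPKM in ABC1, so the adenocarcinoma label of ABC1 rested here on its keratins and *MUC1*. Among markers of other cell types, the leukocyte genes *PTPRC* and *CD3E* and the endothelial genes were near 0 in each library, the erythroid genes summed to at most 3.74 FPKM, *CD68* was the leukocyte gene that brought that sum to 89.5 to 102 FPKM in HCC4006 against 1.69 to 2.56 FPKM in ABC1, and 1 to 2 of 8 fibroblast markers reached 1 FPKM, with a sum of 3.82 to 6.82 FPKM in ABC1 and 7.27 to 9.38 FPKM in HCC4006.

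Start regions of *CDH2*, *VIM* and *FN1*, which were called between the lines, and of *ZEB1*, whose libraries did not overlap between treatments, are shown so that their base composition and E-boxes can be read beside the levels. RefSeq windows of 250 bases before an annotated start (GRCh38.p14) matched 5 of the 10 members, with 2 windows for *CDH2*, of which the first is printed, 7 for *ZEB1* and 1 each for *VIM*, *FN1* and *ZEB2*, 12 in all. *CDH1*, *EPCAM*, *ESRP1*, *SNAI1* and *SNAI2* were not matched. Capitals mark an E-box, searched as CACCTG and as CAGGTG on the other strand, and all sequences run 5′ to 3′ on the strand of the gene.
*CDH2*, chr18:28177131-28177380, minus strand: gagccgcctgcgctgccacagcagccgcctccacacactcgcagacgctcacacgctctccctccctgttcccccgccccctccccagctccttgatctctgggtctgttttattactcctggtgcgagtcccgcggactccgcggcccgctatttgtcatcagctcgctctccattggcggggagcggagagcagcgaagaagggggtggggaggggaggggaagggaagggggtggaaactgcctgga
*VIM*, chr10:17227991-17228240, plus strand: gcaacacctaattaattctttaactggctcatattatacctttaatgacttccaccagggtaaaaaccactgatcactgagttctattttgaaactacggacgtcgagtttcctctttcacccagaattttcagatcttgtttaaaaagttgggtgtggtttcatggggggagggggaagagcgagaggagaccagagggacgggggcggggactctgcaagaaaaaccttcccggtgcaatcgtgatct
*FN1*, chr2:215436069-215436318, minus strand: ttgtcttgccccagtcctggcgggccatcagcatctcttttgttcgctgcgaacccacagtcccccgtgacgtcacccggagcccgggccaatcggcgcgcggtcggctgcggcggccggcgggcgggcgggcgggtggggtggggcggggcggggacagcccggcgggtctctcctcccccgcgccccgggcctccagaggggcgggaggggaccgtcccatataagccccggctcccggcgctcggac
*ZEB1*, first of 7 starts, chr10:31318167-31318416, plus strand: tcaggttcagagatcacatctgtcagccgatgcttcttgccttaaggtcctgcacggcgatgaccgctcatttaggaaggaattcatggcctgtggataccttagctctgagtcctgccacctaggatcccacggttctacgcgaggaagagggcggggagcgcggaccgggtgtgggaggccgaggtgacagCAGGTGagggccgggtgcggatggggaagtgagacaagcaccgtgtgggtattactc
*ZEB1*, the third of 7 starts, chr10:31318966-31319215, plus strand: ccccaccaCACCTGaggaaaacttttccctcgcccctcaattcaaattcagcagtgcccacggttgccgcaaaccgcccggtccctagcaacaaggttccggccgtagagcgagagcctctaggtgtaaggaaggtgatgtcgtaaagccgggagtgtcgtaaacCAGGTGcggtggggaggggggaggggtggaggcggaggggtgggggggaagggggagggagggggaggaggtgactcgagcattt
The windows of *CDH2*, *VIM* and *FN1* hold no E-box of these letters, and 2 of the 7 windows of *ZEB1* do. In the first *ZEB1* window the match begins 57 bases before the start, and in the third the matches begin 242 and 85 bases before it. An E-box is thus in 2 of the 12 windows of members, and in 17.5% of all 35116 windows of the table. The core of the antioxidant response element that NRF2 binds, searched as TGACNNNGC and on the other strand as GCNNNGTCA, is in 10.9% of all windows and in 0 of the 12 windows of members. G and C made up 76.4% of the *FN1* window, with 32 CpG dinucleotides, against 46% and 8 for *VIM*, and the medians over all windows were 58% and 11. A match of letters describes the sequence and says nothing of binding in these cells.

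With vehicle, the epithelial genes *EPCAM* and *CDH1* were expressed at a high level in both lines, and the largest differences between the lines among the members were in *VIM*, *FN1*, *SNAI2* and *CDH2*. ABC1 combined these epithelial genes with a high level of *FN1* and hardly any *VIM* or *CDH2*, whereas HCC4006 combined them with high *VIM*, moderate *CDH2* and *SNAI2*, and low *FN1*. In ABC1 the members ran, from the highest mean FPKM to the lowest, *EPCAM*, *FN1*, *CDH1*, *ESRP1*, *SNAI2*, *SNAI1*, *CDH2*, *VIM*, *ZEB1* and *ZEB2*. The libraries of *SNAI2* and *SNAI1* overlapped, as did those of *CDH2* and *VIM*, so these neighbors were not separated. In HCC4006 the order was *VIM*, *EPCAM*, *CDH1*, *ESRP1*, *SNAI2*, *FN1*, *CDH2*, *SNAI1*, *ZEB1* and *ZEB2*, and the libraries of *VIM* and *EPCAM* overlapped. *ZEB1* and *ZEB2* were the lowest members in both lines.

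**Figure D1:**
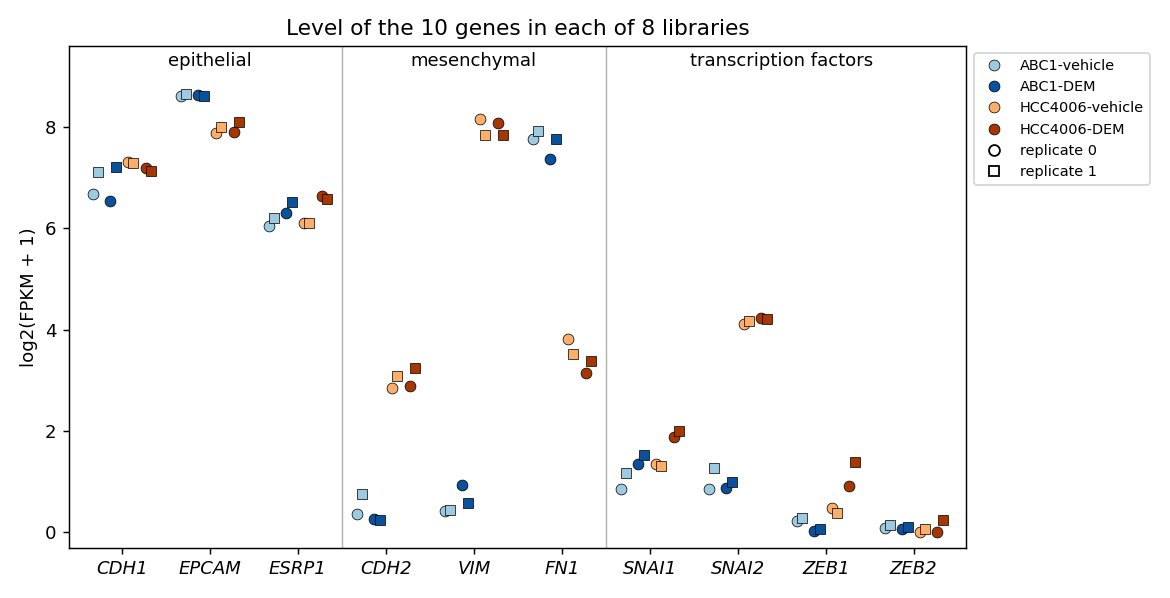
Level of the 10 genes as log2(FPKM + 1) (vertical axis) in each of the 8 libraries, with color for the line and treatment and circles and squares for replicates 0 and 1. *CDH1*, *EPCAM* and *ESRP1* are high in all libraries (lowest value 65.1 FPKM), while *VIM* is at most 0.909 FPKM in ABC1 and at least 227 FPKM in HCC4006 and *FN1* shows the opposite order.

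Among the epithelial members, *CDH1* (ENSG00000039068.14, 16:68771195-68869440 on GRCh37, plus strand) encodes E-cadherin. It was at 101 and 137 FPKM in the ABC1 vehicle libraries and at 158 and 155 FPKM in those of HCC4006, that is, 119 ± 25.4 against 156 ± 2.13 FPKM (SD, n = 2). The HCC4006 libraries lay above those of ABC1, but the difference did not pass the test, with a log2 fold change of 0.40 (95% interval 0.0013 to 0.81, limma adjusted p = 0.0699). Without replicate 1 of ABC1 with vehicle the difference was called, at 0.62 with a limma adjusted p of 0.00411. *EPCAM* (ENSG00000119888.6, 2:47572297-47614740, plus strand), which encodes a cell adhesion molecule of epithelia, was at 388 and 401 FPKM in ABC1 and at 234 and 255 FPKM in HCC4006. It was 1.61-fold lower in HCC4006 (log2 fold change -0.69, SE 0.094, limma adjusted p = 0.00177), and the adjusted p was 0.0501 without replicate 0 of HCC4006 with vehicle. *ESRP1* (ENSG00000104413.11, 8:95653302-95719694, plus strand), a splicing factor that maintains epithelial isoforms, was at 65.1 and 72.9 FPKM in ABC1 and at 67.7 and 68.0 FPKM in HCC4006. Its libraries overlapped, and the difference lay within -0.27 to 0.22 on the log2 scale (limma adjusted p = 0.856).

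Of the mesenchymal members, *VIM* (ENSG00000026025.9, 10:17270240-17279592, plus strand), encoding the intermediate filament vimentin, separated the lines most. It was at 0.346 and 0.352 FPKM in the ABC1 vehicle libraries and at 283 and 229 FPKM in those of HCC4006. The mean was 734-fold higher in HCC4006, with a log2 fold change on the log2(FPKM + 1) scale of 7.57 (SE 0.13, limma adjusted p = 5.3e-06). *CDH2* (ENSG00000170558.4, 18:25512843-25757910, minus strand), encoding N-cadherin, was at 0.290 and 0.702 FPKM in ABC1 and at 6.23 and 7.55 FPKM in HCC4006, a ratio of means of 13.9 (log2 fold change 2.41, SE 0.19, limma adjusted p = 2.6e-04). *FN1* (ENSG00000115414.14, 2:216225163-216300796, minus strand) encodes fibronectin, a glycoprotein of the extracellular matrix, and went the other way. It was at 216 and 242 FPKM in ABC1 and at 13.2 and 10.5 FPKM in HCC4006, 19.3-fold lower in the latter (log2 fold change -4.17, SE 0.13, limma adjusted p = 1.8e-05). In cultures measured in bulk, fewer cells that express a gene and less RNA of it per cell cannot be told apart.

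The transcription factors were expressed at lower levels. *SNAI2* (ENSG00000019549.4, 8:49830157-49834299, minus strand), encoding the repressor SLUG, was at 0.809 and 1.40 FPKM in the ABC1 vehicle libraries and at 16.3 and 17.1 FPKM in those of HCC4006. It was 15.1-fold higher in HCC4006 (log2 fold change 3.09, SE 0.17, limma adjusted p = 8.2e-05). *SNAI1* (ENSG00000124216.3, 20:48599517-48605423, plus strand), encoding the related repressor SNAIL, was at 0.806 and 1.26 FPKM in ABC1 and at 1.55 and 1.47 FPKM in HCC4006. These libraries did not overlap, yet the difference did not pass the test (log2 fold change 0.31, 95% interval -0.11 to 0.74, limma adjusted p = 0.153). *ZEB1* (ENSG00000148516.17, 10:31607424-31818742, plus strand) was at 0.174 and 0.214 FPKM in ABC1 and at 0.392 and 0.304 FPKM in HCC4006. *ZEB2* (ENSG00000169554.12, 2:145121931-145278624, minus strand) was at 0.0643 and 0.105 FPKM in ABC1 and at 0.0130 and 0.0522 FPKM in HCC4006. Both encode E-box binding repressors, and both stayed under the minimum of 1 FPKM and were not tested between the lines. The base means of *ZEB1* in the authors' deposited tables, 2.75 in ABC1 and 26.0 in HCC4006, and of *ZEB2*, 2.73 and 1.70, show how few counts lie behind these values.

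Of the 8 members tested between the vehicle libraries, 3 were called higher and 2 lower in HCC4006, where 67.7% of all 13747 genes tested were called, 37.3% higher and 30.4% lower. The 5 of 8 members called, or 62.5%, are close to that share, so the number of calls among the members does not stand out from other genes. *CDH2* and *VIM* passed the minimum only through HCC4006 and therefore had to differ, so their calls support no pattern among the members. *FN1* and *SNAI2*, whose means reached the minimum in both lines, were called in all 11 alternative analyses. The same held for *VIM* and *CDH2*, which adds no support where a minimum was applied.

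With DEM, 2 members passed the test, *ESRP1* and *SNAI1*, and both were higher in HCC4006. *CDH1* and *EPCAM* were not called in either line. No member was called lower, against 0.435% of all genes tested in ABC1 and 10.7% in HCC4006. In HCC4006 8.45% of all genes tested were called higher, and the call of *SNAI1* was lost in 7 of 11 alternatives.

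In ABC1, 6 of the 10 members were tested and 0 were called with limma at an adjusted p under 0.05, against 1.20% of all 12635 genes tested (0.768% called higher), and 0 of the 6 had an unadjusted p under 0.05. *CDH1* was at 101 and 137 FPKM with vehicle and at 92.4 and 146 FPKM with DEM. Both replicate 1 libraries lay above both replicate 0 libraries, the groups overlapped, and the interval of the log2 fold change ran from -0.66 to 0.62. *EPCAM* was at 388 and 401 FPKM with vehicle and at 398 and 389 FPKM with DEM, with an interval of -0.32 to 0.31. The interval of *CDH1* is the wider, so a change of that size in E-cadherin would not have been seen here.

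*ESRP1* was at 65.1 and 72.9 FPKM with vehicle and at 77.7 and 91.3 FPKM with DEM in ABC1, a log2 fold change of 0.29 (95% interval -0.062 to 0.64, limma adjusted p = 0.303). *FN1* was at 216 and 242 FPKM with vehicle and at 165 and 215 FPKM with DEM (log2 fold change -0.28, 95% interval -0.70 to 0.15, limma adjusted p = 0.398). *SNAI1* was at 0.806 and 1.26 FPKM with vehicle and at 1.56 and 1.90 FPKM with DEM (log2 fold change 0.43, 95% interval -0.15 to 1.01, limma adjusted p = 0.343). In these genes the DEM libraries did not overlap the vehicle libraries, but none passed the test. For *FN1* the nearest libraries were at 216 FPKM with vehicle and 215 FPKM with DEM. With 2 libraries against 2, such a separation alone cannot give an exact permutation p under 0.333. *SNAI2* was at 0.809 and 1.40 FPKM with vehicle and at 0.835 and 0.984 FPKM with DEM, within an interval of -0.76 to 0.50. The other 4 members were under the minimum in ABC1 and not tested. *VIM* was at 0.346 and 0.352 FPKM with vehicle and at 0.909 and 0.493 FPKM with DEM, and *CDH2* was at 0.290 and 0.702 FPKM with vehicle and at 0.198 and 0.186 FPKM with DEM. *ZEB1* was at 0.174 and 0.214 FPKM with vehicle and at 0.0249 and 0.0545 FPKM with DEM. The libraries of *VIM*, *CDH2* and *ZEB1* did not overlap between treatments, at base means of 10.2, 16.0 and 2.75 in the authors' deposited table, and those of *ZEB2* did, with DEM values of 0.0496 and 0.0825 FPKM.

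**Figure D2:**
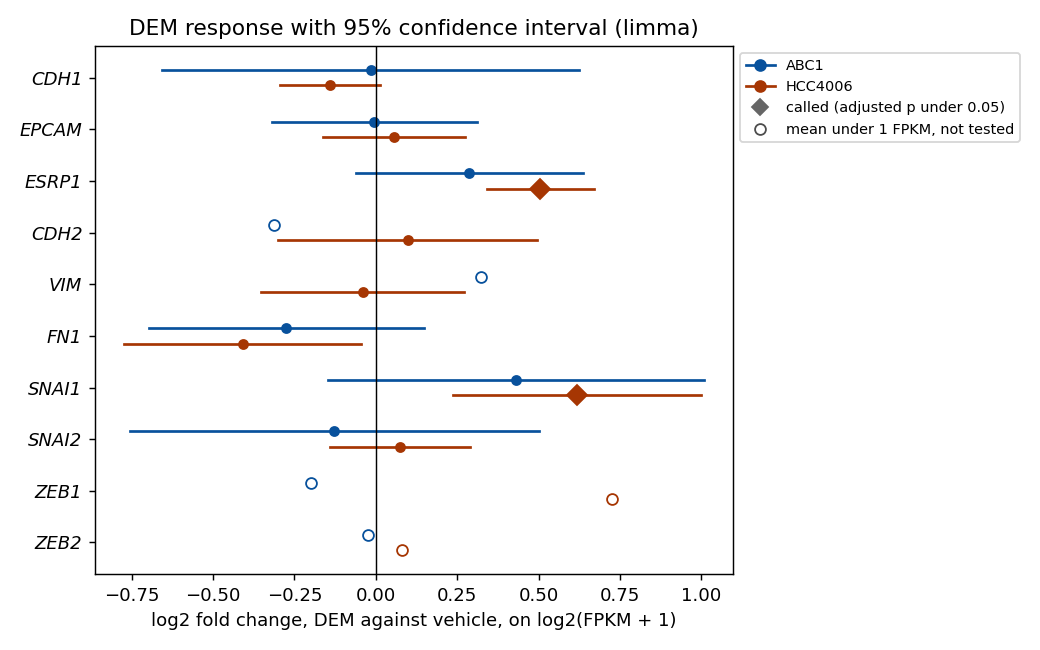
Log2 fold change of each member with DEM against vehicle (horizontal axis, log2(FPKM + 1) scale) in ABC1 and HCC4006, with bars for the 95% interval of limma where a gene was tested, open circles where it was not and diamonds where it was called. The intervals of *ESRP1* (0.34 to 0.67) and *SNAI1* (0.24 to 1.0) in HCC4006 are those of the genes called.

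In HCC4006, 8 members were tested, and 3 had an unadjusted limma p under 0.05, as had 4985 of all 13542 genes tested. With limma 2 members were called higher and 0 lower. The share of 25% compares with 19.1% of all 13542 genes tested, which is near enough that the count says nothing particular about these genes. *ESRP1* was at 67.7 and 68.0 FPKM with vehicle and at 98.9 and 94.6 FPKM with DEM. The DEM libraries lay well above the vehicle libraries, with means of 96.8 ± 3.03 and 67.9 ± 0.190 FPKM (SD, n = 2), a 1.43-fold difference (log2 fold change 0.51, SE 0.067, limma adjusted p = 0.00789). The call was lost in 2 of 11 alternatives, without the minimum of 1 FPKM (adjusted p = 0.0531) and without replicate 1 of HCC4006 with vehicle (adjusted p = 0.0551).

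*SNAI1* was at 1.55 and 1.47 FPKM with vehicle and at 2.69 and 3.03 FPKM with DEM in HCC4006, a 1.89-fold difference of low values. Its log2 fold change was 0.62 (SE 0.16, limma adjusted p = 0.0435). This call was lost in 7 of 11 alternatives, among them each removal of 1 library, with adjusted p between 0.0276 and 0.166 over the alternatives and a log2 fold change between 0.56 and 0.88. The base mean of *SNAI1* was 52.8 in the authors' deposited table for HCC4006.

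*FN1* was at 13.2 and 10.5 FPKM with vehicle and at 7.82 and 9.50 FPKM with DEM. The DEM libraries lay below the vehicle libraries, but the log2 fold change of -0.41 (95% interval -0.77 to -0.045) had an unadjusted limma p of 0.0332 and an adjusted p of 0.105. *CDH1* was at 158 and 155 FPKM with vehicle and at 144 and 139 FPKM with DEM, a log2 fold change of -0.14 (95% interval -0.29 to 0.014, limma adjusted p = 0.166). For E-cadherin the treatments did not overlap. *EPCAM*, at 234 and 255 FPKM with vehicle and at 237 and 272 FPKM with DEM, had an interval of -0.16 to 0.27. *VIM*, at 283 and 229 FPKM with vehicle and at 269 and 227 FPKM with DEM, had an interval of -0.35 to 0.27. The vimentin and EPCAM libraries overlapped between treatments. *VIM-AS1*, transcribed from the opposite strand, was at 0.271 and 1.59 FPKM with vehicle and at 0.581 and 0.587 FPKM with DEM in HCC4006.

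*CDH2* was at 6.23 and 7.55 FPKM with vehicle and at 6.46 and 8.49 FPKM with DEM, within -0.30 to 0.49 on the log2 scale. *SNAI2* was at 16.3 and 17.1 FPKM with vehicle and at 17.8 and 17.5 FPKM with DEM, within -0.14 to 0.29, and its libraries did not overlap between treatments. *ZEB1* was at 0.392 and 0.304 FPKM with vehicle and at 0.896 and 1.61 FPKM with DEM. Its libraries did not overlap, but it was not tested because its mean in the line was under the minimum. With a minimum of 0.1 FPKM the adjusted p of *ZEB1* in HCC4006 was 0.0948, and with none it was 0.249. *ZEB1-AS1*, a transcript from the opposite strand at the *ZEB1* start, was at 2.25 and 0.579 FPKM with vehicle and at 1.84 and 1.99 FPKM with DEM in HCC4006, and whether the quantification separated the strands is not given in the sources used here. *ZEB2* was at 0.0130 and 0.0522 FPKM with vehicle and at 0.000491 and 0.190 FPKM with DEM.

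**Figure D3:**
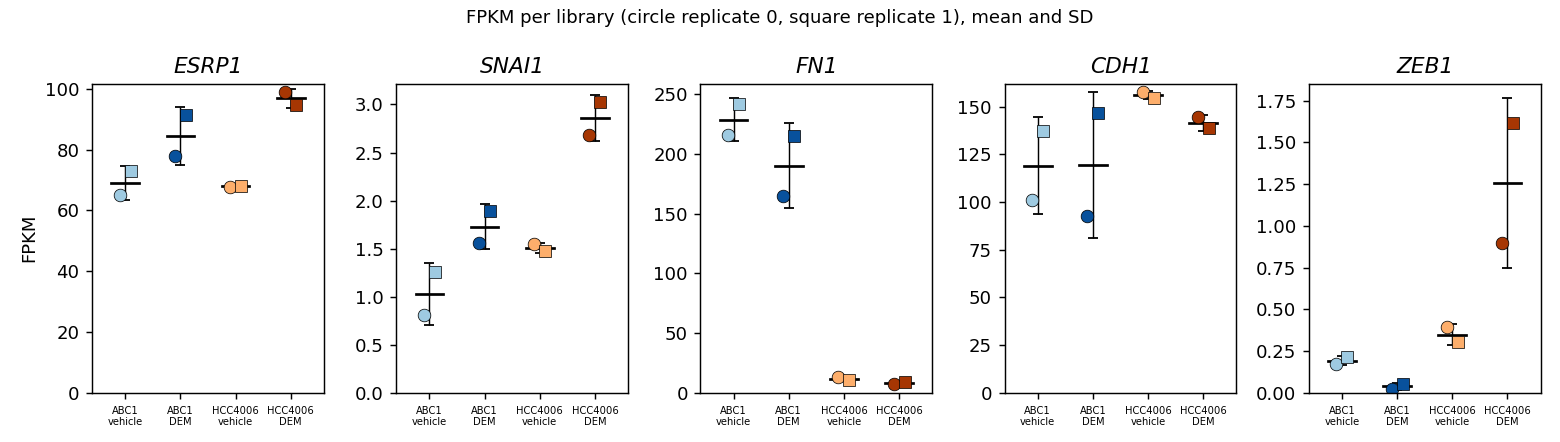
FPKM (vertical axes, starting at 0) of *ESRP1*, *SNAI1*, *FN1*, *CDH1* and *ZEB1* in each library (circles replicate 0, squares replicate 1), with the mean of the group (thick line) and its SD (error bar, n = 2). *ESRP1* and *SNAI1* are higher in the DEM than in the vehicle libraries of both lines, and *ZEB1* lies lower with DEM in ABC1 (0.0249 and 0.0545) and higher in HCC4006 (0.896 and 1.61).

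The responses of the lines were compared in a model of all 8 libraries with an interaction term. Of 8 members tested, 0 were called with limma and 0 had an unadjusted p under 0.05, against 0.636% of all 13682 genes called, 0.329% with the lower response in HCC4006. The response of *ESRP1* was 0.22 higher in HCC4006 than in ABC1 on the log2 scale (SE 0.15, 95% interval -0.14 to 0.58, limma adjusted p = 0.578). That of *SNAI1* was 0.19 higher (SE 0.22, 95% interval -0.33 to 0.71, limma adjusted p = 0.771). That of *FN1* differed by -0.13 (SE 0.24, limma adjusted p = 0.857) and that of *CDH1* by -0.12 (95% interval -0.85 to 0.60, limma adjusted p = 0.905). The calls of *ESRP1* and *SNAI1* in HCC4006 are thus not shown to be particular to that line.

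Beyond the members, lists of genes from the same programs were set beside all genes. Between the vehicle libraries, 21 of 23 mesenchymal matrix and cytoskeleton genes tested were called higher in HCC4006 and 2 lower, with a median log2 fold change of 4.23 against 0.07 for all genes. The hyaluronan receptor gene *CD44* was at 0.803 and 1.34 FPKM in ABC1 and at 8890 and 8282 FPKM in HCC4006. *TGFBI*, encoding a matrix protein induced by TGF-β, was at 0.835 and 0.366 FPKM in ABC1 and at 287 and 290 FPKM in HCC4006, and *SPARC*, encoding a matrix glycoprotein, was at 0 and 0.785 FPKM against 225 and 224 FPKM. *TAGLN*, an actin-binding protein of smooth muscle, and *S100A4* were lower in HCC4006, by log2 differences of -2.85 and -2.38. Low genes of this list, *TGFBI* and *SPARC* among them, entered the test through HCC4006 alone, as *VIM* did. Their direction was fixed in advance, so the count of 21 and the list median are descriptions and support no pattern. Of 9 epithelial transcription and splicing regulators, 6 were lower and 2 higher in HCC4006 (median -0.76), with *GRHL1* at -2.47, *OVOL1* at -2.45 and *GRHL2* at -1.45, and with *EHF* at 3.18 and *ELF3* at 0.90. Over all genes tested in this comparison 30.4% were called lower and 37.3% higher, so counts in these lists cannot be read alone. Of 28 junction and membrane genes, 16 were lower and 5 higher (median -0.43), led by the desmosome genes *DSP* (-2.70) and *PKP2* (-2.40) and the tight junction gene *CLDN3* (-2.47) on the lower side and by *CDH3* (2.83), which encodes P-cadherin, on the higher side. The lower count fell to 9 without replicate 0 and to 10 without replicate 1 of HCC4006 with vehicle. The simple keratins split, with *KRT7* higher (6.29) and *KRT8* (-1.56), *KRT18* (-1.52) and *KRT19* (-0.46) lower in HCC4006.

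**Figure D4:**
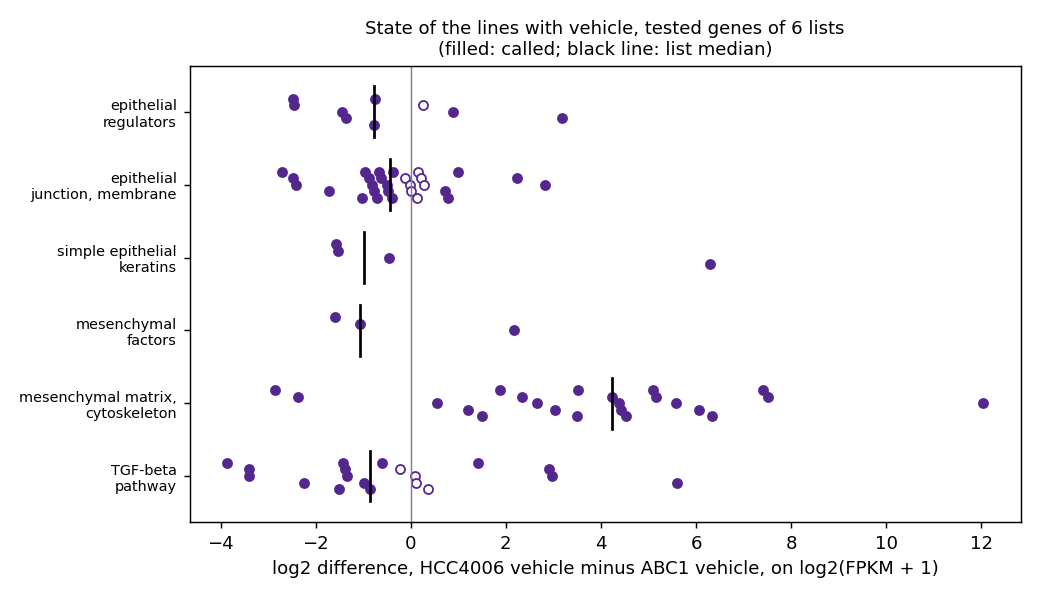
Log2 fold change of HCC4006 against ABC1, vehicle libraries (horizontal axis), for each tested gene of 6 lists of the epithelial and mesenchymal programs, filled where called, with a black line at the median of each list. The matrix and cytoskeleton genes lie mostly to the right (median 4.23) and the junction genes mostly to the left of 0 (median -0.43). Matrix genes that reached the minimum through HCC4006 alone had to lie to the right.

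TGF-β is a main inducer of the mesenchymal program. Of 19 of its ligands, receptors, SMADs and feedback genes tested between the lines, 4 were higher and 11 lower in HCC4006 (median -0.86). Over all genes tested in this comparison 37.3% were called higher and 30.4% lower. The ligands *TGFB2* (log2 fold change 5.59) and *TGFB1* (2.90) and the co-receptor gene *ENG* (2.98) were higher, and the inhibitors of differentiation *ID2* (-3.86) and *ID3* (-3.39) and the co-receptor gene *TGFBR3* (-3.40) were lower. *TGFB2* and *ENG* reached the minimum through HCC4006 alone and therefore had to differ. Of the other mesenchymal transcription factors, 3 of 6 were tested, and *TWIST2*, listed at 0 in both ABC1 vehicle libraries, was at 4.68 and 2.62 FPKM in HCC4006, while *FOXC2* and *TCF4* were lower. *TWIST2* reached the minimum through HCC4006 alone and *FOXC2* through ABC1 alone, so both had to differ. With DEM, 2 of these factors were tested in each line and 0 were called with limma, with 1 in ABC1 and 0 in HCC4006 at an unadjusted p under 0.05. Between the lines, removal of either replicate of ABC1 with vehicle took *FOXC2* under the minimum, so that it was not tested. The call of *TCF4* between the lines was lost with either removal.

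With DEM, matrix and TGF-β genes were called lower in HCC4006 in larger number than higher, while *VIM* and *CDH2* were not called. Of 25 matrix and cytoskeleton genes tested, 9 were called lower and 1 higher, with a median of -0.28 against -0.03 for all genes, of which 10.7% were called lower and 8.45% higher. *CDH11*, encoding a mesenchymal cadherin, was at 12.3 and 13.5 FPKM with vehicle and at 6.14 and 4.87 FPKM with DEM (log2 fold change -1.10, SE 0.14, limma adjusted p = 0.00654). The fibrillin gene *FBN1* was at 19.2 and 19.6 FPKM with vehicle and at 11.1 and 9.90 FPKM with DEM, and *TGFBI*, *SPARC*, *TNC*, *COL5A1*, *MMP2* and *LGALS1* were also called lower. The membrane metalloprotease gene *MMP14* was the gene called higher, at 25.2 and 19.5 FPKM with vehicle and at 34.4 and 34.1 FPKM with DEM. Of 18 TGF-β genes tested, 6 were lower and 0 higher (median -0.24).

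*TGFB2* was at 48.5 and 56.3 FPKM with vehicle and at 21.2 and 21.2 FPKM with DEM in HCC4006 (log2 fold change -1.26, SE 0.096, limma adjusted p = 0.00179). The inhibitory SMAD genes *SMAD7* and *SMAD6*, which dampen TGF-β and BMP signals, were lower at log2 fold changes of -0.70 and -0.65, and *ID3*, *ENG* and *TGFBR2* were the other genes called. Removing 1 HCC4006 library at a time left 6 to 7 of the matrix genes and 1 to 4 of the TGF-β genes called lower.

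In HCC4006 the epithelial regulators and the junction and membrane genes had no common direction with DEM, whereas all 4 simple keratins lay below 0. Of 9 regulators, *KLF4* (log2 fold change 0.76, limma adjusted p = 0.00949) and *KLF5* (0.52, adjusted p = 0.0316) were higher, and *EHF* (-0.43, adjusted p = 0.0119) and *ELF3* (-0.32, adjusted p = 0.0283) were lower. Of 28 junction and membrane genes 4 were higher, *PRSS8*, *CLDN4*, *MARVELD3* and *CRB3*, and 4 were lower, among them *CGN*, *RAB25* and *MAL2*. Of the 4 simple keratins 3 were lower, *KRT7* (log2 fold change -0.51), *KRT8* (-0.46) and *KRT18* (-0.40). Over all genes tested in HCC4006 8.45% were called higher and 10.7% lower, so the counts in these short lists cannot be read alone. *KRT8*, a partner of *KRT18* in the filaments of simple epithelia, was at 927 and 813 FPKM with vehicle and at 644 and 621 FPKM with DEM. Without 1 library at a time, 0 to 2 regulators were called higher and 0 to 1 lower, 0 to 2 junction genes were called higher and 0 to 1 lower, and 1 to 2 keratins were called lower.

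In ABC1, 1 gene of the epithelial and mesenchymal lists was called with DEM, *OVOL1*, a zinc-finger factor that restrains the mesenchymal program in epithelia. It was at 12.4 and 13.2 FPKM with vehicle and at 24.3 and 23.8 FPKM with DEM (log2 fold change 0.86, SE 0.12, limma adjusted p = 0.0452), and the call was lost without any 1 of the 4 libraries. Of the 28 junction genes 0 were called with limma and 13 had an unadjusted p under 0.05, and of the 8 matrix genes and 17 TGF-β genes tested 0 were called and 0 and 2 had an unadjusted p under 0.05. Over all 12635 genes tested in ABC1, 2771 had an unadjusted limma p under 0.05, so counts of such genes cannot be read alone. All 4 keratins were lower in the DEM libraries, at unadjusted limma p under 0.05 each, but 0 passed the adjusted threshold. The nearest was *KRT7*, at 25.9 and 25.4 FPKM with vehicle and at 10.4 and 14.0 FPKM with DEM (log2 fold change -1.02, limma adjusted p = 0.0600). Between the lines the difference in response was called for 1 of 19 TGF-β genes tested, *TGFB2*, which was near 0 FPKM in ABC1 with either treatment, and for 1 of 23 matrix genes.

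**Figure D5:**
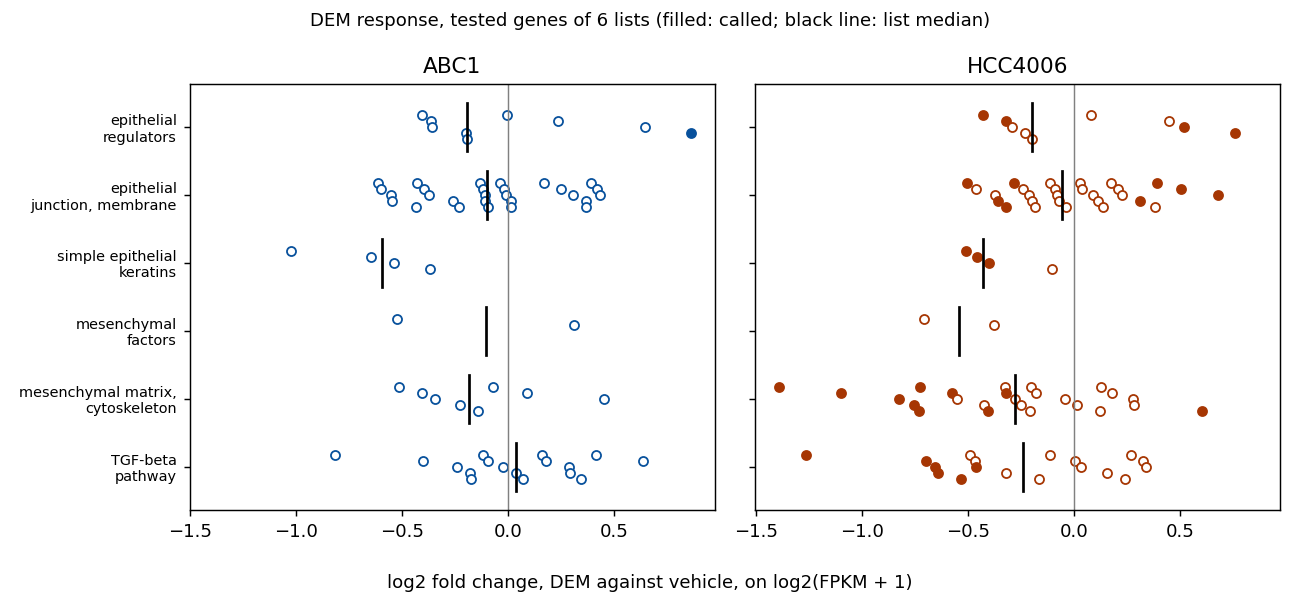
Log2 fold change with DEM against vehicle (horizontal axis) for each tested gene of the 6 lists in ABC1 and HCC4006, filled where called, with a black line at the median of each list. In HCC4006 the matrix and TGF-β genes center below 0 (medians -0.28 and -0.24), and the simple keratins are below 0 in both lines.

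The genes with a pattern most like that of a member were found by Euclidean distance over the 8 libraries, on log2(FPKM + 1) centered on the mean of each gene, among the 13391 genes whose mean reached 1 FPKM. For *CDH1* these were *TRUB1*, *MTA2* and *KLF11*, at distances of 0.169, 0.180 and 0.199. For *VIM* they were *NUPR1*, *COL4A2* and *PXDN*, at 0.897, 0.980 and 0.993. The distance grows with the range of a gene over the libraries, which was larger for *VIM*, so distances are not comparable between the 2 members.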

How the data were processed

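RNA was measured by RNA-seq of poly(A)-selected RNA, with a strand-specific SureSelect kit, in 8 libraries. The authors deposited 1 FPKM value per gene identifier and library. The paper's methods name TopHat and Cufflinks on hg19, whereas the submitters' processing notes name STAR 2.5.3a, Cuffnorm, HTSeq and DESeq2, so the aligner behind the FPKM values is uncertain, and whether strand was used in counting is not given in the sources used here. The authors also deposited, for each line, a table with their base mean, used here as a signal of counting depth, and with their own fold changes and p-values, which were not used.

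Values were compared as log2(FPKM + 1) with limma 3.58.1 in R 4.3.3, allowing for a mean-variance trend. Genes whose mean over the libraries compared reached 1 FPKM were tested, and a gene was called at a Benjamini-Hochberg adjusted p under 0.05. The comparisons were of DEM with vehicle in a line, of the lines given vehicle, and of the responses by an interaction term over 8 libraries. The pseudocount of 1 shrinks the fold change of low genes. With 2 libraries against 2, an exact permutation test cannot give a p under 0.333. The p-values therefore come from limma across all genes and measure only the spread between these libraries. Libraries that do not overlap are, for the same reason, a description and alone no evidence of a change. The share of all genes without overlap was not counted. The scripts were tested on simulated data with changes of 2 log2 units. All of these were recovered, with 2.56% to 5.94% false among the calls over the comparisons. Changes as small as those of *ESRP1* and *SNAI1* with DEM were not simulated. Alternatives were another pseudocount, other minimums, scaling by the median of ratios, no trend, the replicate number as a block, a model of all 8 libraries, and removal of each library. The members and lists were chosen with earlier results of these data known. In every comparison the text names the 10 members, in each list up to 3 genes called per direction with the largest changes and no overlap of libraries, all NRF2 targets, and the 3 genes most like *CDH1* and *VIM*. Other genes named as called or not called, *CRB3*, *TGFBI*, *SPARC*, *TNC*, *COL5A1*, *MMP2*, *LGALS1*, *ID3*, *ENG*, *TGFBR2* and *KRT7* in ABC1, were named after their values were seen. A few genes of the lists are counted in the text but not reported here by name. Symbols were found for 55534 of 57815 identifiers. Gene positions are those of GENCODE v44 on GRCh37, and promoter windows those of RefSeq on GRCh38.p14, with no conversion between builds.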

Additional observations from a re-analysis of the deposited data

Results flagged for a closer look

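*ZEB1* was singled out because its level with DEM was lower than with vehicle in both ABC1 replicates and higher in both HCC4006 replicates. The log2 responses differed by 0.92 between the lines (HCC4006 minus ABC1), at levels under 1 FPKM in 7 of the 8 libraries, and the difference was not tested at the minimum of 1 FPKM. With a minimum of 0.1 FPKM its limma adjusted p was 0.155 and with none it was 0.197.

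*TGFB2* was singled out because its response differed between the lines in the test of the interaction, by -1.23 (SE 0.17, limma adjusted p = 0.0371), a call made in 3 of 14 alternatives. In ABC1 the gene was near 0 with either treatment, at 0.0490 and 0.158 FPKM with vehicle and at 0.0949 and 0.0516 FPKM with DEM.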

How the results depend on the processing

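In ABC1, the 97 genes called higher and 55 called lower with DEM became 0 and 0 with no expression minimum (limma, 3883 genes with an unadjusted p under 0.05), 24 and 2 with a minimum of 0.1 FPKM, 185 and 121 with scaling by the median of ratios, 27 and 6 with no trend, 738 and 756 in a model of all 8 libraries, and 10 to 51 and 8 to 18 without 1 library. In HCC4006, 1144 and 1447 became 177 and 193 with no minimum, 656 and 809 with a minimum of 0.1 FPKM, 706 and 847 in the model of all libraries, and 290 to 464 and 344 to 564 without 1 library. Of the 2 members called higher there, 0 were left with no minimum (limma), 1 with a minimum of 0.1 FPKM and 0 to 1 without 1 library. Between the lines, 5121 and 4184 became 3055 to 5356 and 2517 to 4028 without 1 library, and the 2 members lower in HCC4006 became 1 to 2. For the difference of responses, 42 and 45 became 11 and 9 with a pseudocount of 0.1, 173 and 230 with no minimum, and 0 to 17 and 2 to 27 without 1 library. Without replicate 1 of HCC4006 with vehicle, 0 genes were called higher and 4 lower by limma, and 1492 had an unadjusted p under 0.05.

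The labels do not say that a replicate number marks a shared batch. The deviations of same-numbered samples correlated across genes at r = 0.258 in ABC1 and 0.0544 in HCC4006, and with 2 pairs in each line it is undecided whether the numbers pair the samples. With the replicate number as a block, 1185 genes were called higher and 1163 lower in ABC1, 1 of them a member, *ESRP1* (adjusted p = 0.0460), 1 member was called higher in HCC4006, and the difference of responses had 5 and 8 calls.

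Values of members that were not called changed sign. *EPCAM* in ABC1 was 0.0076 with scaling by the median of ratios and -0.028 to 0.019 without 1 library. Without 1 library, *CDH1* in ABC1 ran from -0.35 to 0.31, *CDH2* in HCC4006 from -0.076 to 0.27, *VIM* in HCC4006 from -0.19 to 0.11, *EPCAM* in HCC4006 from -0.045 to 0.16, and *ESRP1* between the lines from -0.10 to 0.060. The difference of responses ran from -0.45 to 0.20 for *CDH1*, from -0.33 to 0.057 for *FN1*, from -0.0026 to 0.41 for *SNAI2* and from -0.041 to 0.16 for *EPCAM*. *CDH1* was called higher in HCC4006 than in ABC1 with scaling by the median of ratios (adjusted p = 0.0370) and with the block (adjusted p = 0.0472). Over all alternatives of the members' tests, 338 values kept their direction and their side of the threshold, 10 lost a call, 4 gained one and 19 changed sign. Low levels kept *ZEB1* and *ZEB2* in both lines, and *VIM* and *CDH2* in ABC1, out of the tests of DEM.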

Other observations

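*CD44* took up a large share of the HCC4006 transcriptome. Its base mean in the authors' deposited table for HCC4006 was 150909, or 1.08% of the sum and the rank 2 of all genes, against 18.0 in the authors' deposited table for ABC1. With DEM it was at 7807 and 7126 FPKM, against 8890 and 8282 FPKM with vehicle.

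*CDH3*, which encodes P-cadherin and lies beside *CDH1* on chromosome 16, was at 19.4 and 38.6 FPKM in ABC1 with vehicle and at 18.9 and 34.0 FPKM with DEM, replicates 0 and 1 in turn. As for *CDH1*, both replicate 1 libraries were above both replicate 0 libraries, so in ABC1 the cadherin pair differed more between replicate numbers than between treatments. In HCC4006 *CDH3* was at 219 and 185 FPKM with vehicle and at 165 and 147 FPKM with DEM.

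*SOX2*, a marker used for squamous tumors, was at 75.1 and 81.4 FPKM in the ABC1 vehicle libraries and at 0.841 and 1.23 FPKM in those of HCC4006, while *TP63* was at 1.01 and 1.17 FPKM in ABC1 and at 6.85 and 5.90 FPKM in HCC4006. The squamous keratin gene *KRT5* and the desmosomal cadherin gene *DSG3* were under 0.1 FPKM in all libraries.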
